A study of Mus musculus with 12 samples.

Results

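The 40 genes described here are known for marking endothelial cells, the cells that line blood and lymph vessels, or for the adhesion of leukocytes to them. They were chosen by name, with earlier results of these data known. Measured values enter the rule only for a gene with several rows, where the row with the highest mean was taken. On the array, 39 of the 40 had a row of their own. Rasip1 shared its only row with another gene and has no value. The 40 form 4 sets, with 27 pan-endothelial genes, 3 tip and apelin genes, 4 adhesion genes of activated endothelium and 6 sinusoidal and lymphatic genes. The whole table held 22180 genes with a symbol of their own, of which 13286 were tested, and 33 of the 40 were among them.

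RNA was measured on 12 single-colour Affymetrix whole-transcript arrays of mouse colorectal cancer that had been implanted in the liver. The 4 groups of 3 arrays were tumours in fatty liver under anti-VEGF, in healthy liver under anti-VEGF, in fatty liver under vehicle, and in healthy liver under vehicle, from 3 mice a group by the series' own description. The sources used here do not give the tumour line, the anti-VEGF agent with its dose and duration, the means of making the liver fatty, or the strain, age and sex of the mice. Anti-VEGF treatment blocks vascular endothelial growth factor, and the comparisons ask how vessel genes of the tumour differ with that treatment and with the state of the liver.

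Endothelial cells carry junction and surface proteins such as VE-cadherin, PECAM-1 and endomucin, and transcription factors of the ETS and SOX families maintain their identity. VEGF, acting through its receptor VEGFR2, drives tip cells to lead new sprouts, and tip cells make apelin and endocan. Inflamed endothelium displays selectins, on which leukocytes roll, and ICAM-1 and VCAM-1, to which their integrins bind. Liver sinusoids are lined by a specialised endothelium with scavenger receptors of the stabilin family. Several of these genes are also active outside endothelium, in macrophages and other leukocytes, platelets or fibroblasts.

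Promoters of 4 of the genes are shown because they stand for the patterns described below. Emcn and Apln had the widest range over the arrays in the pan-endothelial set and in the tip and apelin set, and the adhesion genes Sele and Icam1 differed between livers in opposite directions. The sequences are RefSeq's for GRCm38, from 250 bases before to 50 bases after the start of the gene, 5′ to 3′ on the strand of the gene. Capitals mark the ETS type motif CAGGAA in Emcn and Apln, and the NF-kappaB type motif GGNNNTTCC in Sele and Icam1. In Emcn and Apln, GGAA without CA before it is not marked. Each motif was searched on both strands, so that a match on the other strand reads as its reverse complement.
Emcn: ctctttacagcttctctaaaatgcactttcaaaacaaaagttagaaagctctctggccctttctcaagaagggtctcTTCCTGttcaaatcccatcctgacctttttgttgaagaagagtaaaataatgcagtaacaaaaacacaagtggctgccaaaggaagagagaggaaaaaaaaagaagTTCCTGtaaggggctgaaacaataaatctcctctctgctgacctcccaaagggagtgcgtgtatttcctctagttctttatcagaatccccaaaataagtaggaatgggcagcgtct
Apln: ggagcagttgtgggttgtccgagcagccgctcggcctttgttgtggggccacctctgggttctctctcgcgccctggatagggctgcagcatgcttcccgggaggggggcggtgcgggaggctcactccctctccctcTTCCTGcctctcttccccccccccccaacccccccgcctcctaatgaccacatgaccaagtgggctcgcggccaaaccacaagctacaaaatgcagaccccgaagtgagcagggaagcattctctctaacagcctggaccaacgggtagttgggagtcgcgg
Sele: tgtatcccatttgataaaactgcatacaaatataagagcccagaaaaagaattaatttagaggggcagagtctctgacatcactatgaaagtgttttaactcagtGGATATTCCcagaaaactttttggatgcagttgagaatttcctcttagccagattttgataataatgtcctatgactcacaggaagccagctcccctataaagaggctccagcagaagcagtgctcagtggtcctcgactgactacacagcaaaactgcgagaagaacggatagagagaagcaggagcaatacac
Icam1: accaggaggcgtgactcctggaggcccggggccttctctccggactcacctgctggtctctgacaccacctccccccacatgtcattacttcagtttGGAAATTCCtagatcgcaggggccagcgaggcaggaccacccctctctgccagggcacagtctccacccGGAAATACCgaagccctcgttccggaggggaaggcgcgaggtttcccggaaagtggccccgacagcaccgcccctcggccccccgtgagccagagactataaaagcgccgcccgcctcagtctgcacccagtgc
The stretches lie at chr3:137340828-137341127 (plus strand) for Emcn, chrX:48034804-48035103 (minus strand) for Apln, chr1:164047984-164048283 (plus strand) for Sele and chr9:21015690-21015989 (plus strand) for Icam1. The 3 Icam1 matches fall on 2 stretches, since 1 stretch reads as the motif on both strands. No match to either motif overlapped a match to the other in these 4 promoters. Of the 40 genes 21 had a promoter in the RefSeq table. CAGGAA was in 15 of the 21 and in 33.4% of the 27025 genes of that table. GGNNNTTCC was in 5 of the 21, Egfl7, Eng, Icam1, Sele and Selp, and in 20.7% of the genes of that table. A match describes these letters and is not a site of binding.

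Values are log2 expression values as deposited. A value above 4.93, the median of the whole table, is called above the limit here, and a gene was tested when at least 3 arrays lay above it. Within groups some arrays were nearly alike. The SD of their difference over the 13286 genes was 0.163 for vehicle arrays 1 and 3 of fatty liver and 0.163 for those of healthy liver, and 0.148 to 0.156 among the 3 healthy anti-VEGF arrays, against 0.391 to 0.636 for the other pairs. They were counted as labelled, and the values cannot show whether they came from separate mice. Xist, the RNA of the inactive X chromosome, was at 8.10 or more on vehicle arrays 1 and 3 of both livers and at 4.32 or less on the other 8 arrays. The Y-linked gene Uty was at 3.84 to 4.17 on those 4 vehicle arrays, and at 8.54 and 7.27 on array 2 of fatty and healthy vehicle. It was at 8.03 to 8.40 on the fatty and 5.39 to 5.54 on the healthy anti-VEGF arrays. No anti-VEGF array was high in Xist, so treatment is partly confounded with these sex-linked genes. Albumin and other defining hepatocyte genes were low, Alb being at most 4.07 on every array. Of the epithelial marker genes, Epcam was at most 3.78, while Krt8 lay between 9.12 and 10.82.

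The pan-endothelial genes were high on 3 arrays, 1 in each of 3 groups, and on no anti-VEGF array of healthy liver. Their mean over 26 genes was 6.71, 5.77 and 5.70 on fatty anti-VEGF arrays 1, 2 and 3, and 5.70, 5.66 and 5.79 on the healthy anti-VEGF arrays. It was 5.81, 7.13 and 5.81 on the fatty vehicle arrays and 5.70, 8.44 and 5.71 on the healthy vehicle arrays. Fatty anti-VEGF array 1, fatty vehicle array 2 and healthy vehicle array 2 therefore stand apart from the other arrays of their own groups, and the healthy vehicle array does so the most. Above the limit were 22 genes on fatty anti-VEGF array 1, 24 on fatty vehicle array 2 and all 26 on healthy vehicle array 2, against 12 to 17 on the other 9 arrays.

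**Figure D1:**
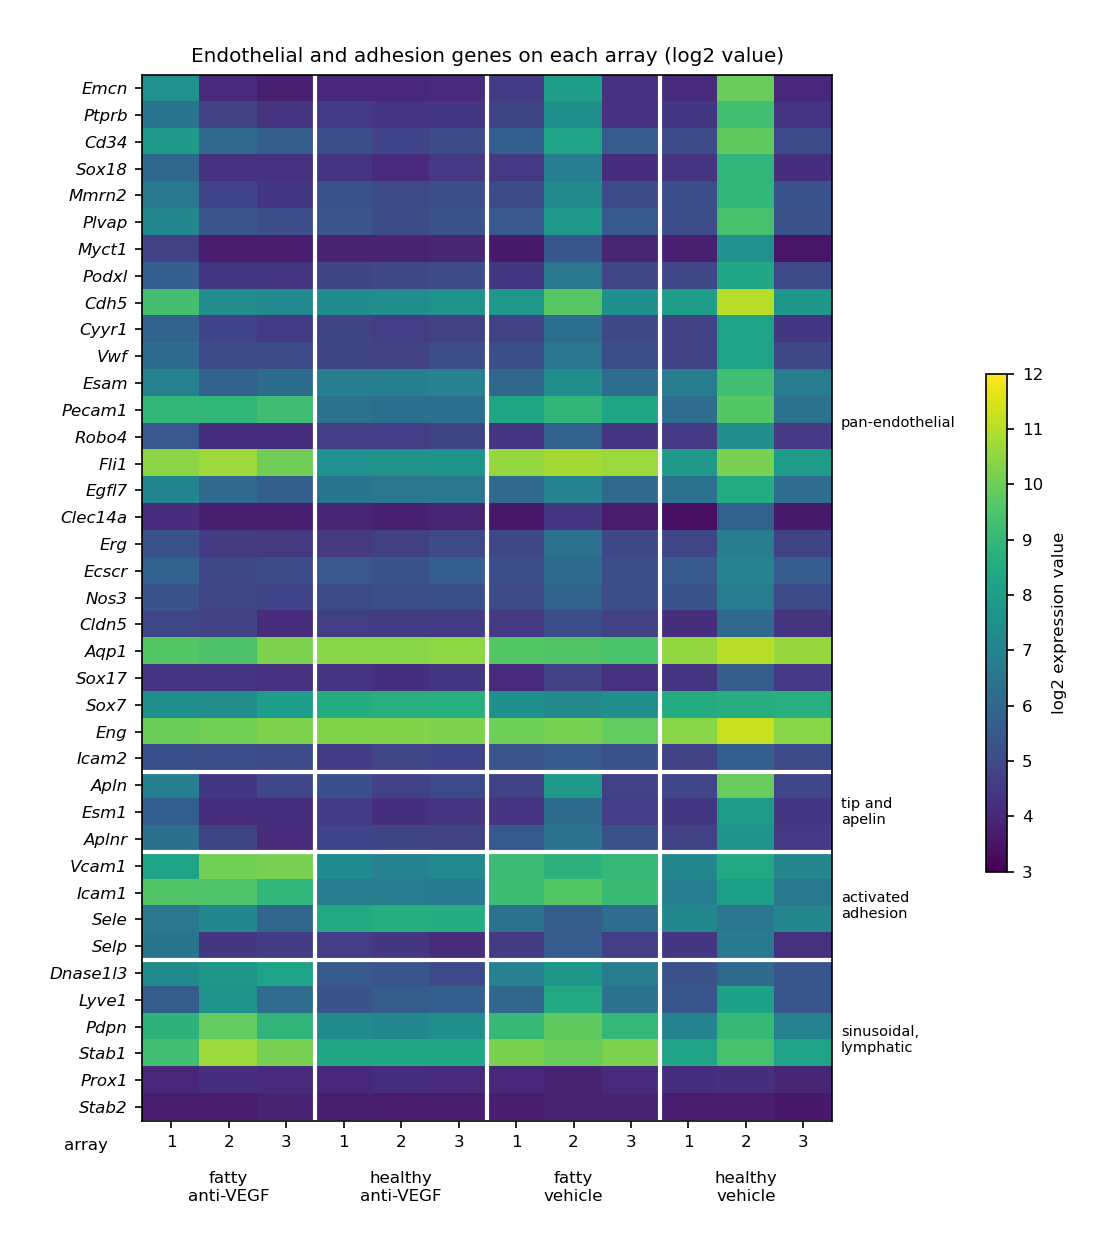
Log2 expression value of each of the 39 genes with a row (vertical axis, by set) on each of the 12 arrays (horizontal axis, by group), with the colour scale at the right. Array 1 of fatty anti-VEGF, array 2 of fatty vehicle and array 2 of healthy vehicle are bright through most of the pan-endothelial and tip genes, and Fli1, Vcam1, Icam1 and Stab1 are brighter in the fatty liver groups.

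Of all 39 genes with a row, 25 were higher on fatty anti-VEGF array 1 than on both other arrays of its group, 16 of them by more than 1 on the log2 scale. Among all 22180 genes the shares were 26.5% and 1.01%. For fatty vehicle array 2 the counts were 33 and 18 of 39, against 41.8% and 0.915% of all genes, and for healthy vehicle array 2 they were 37 and 31 of 39, against 30.5% and 4.34%. The 3 arrays were picked after seeing their high values in these same genes, so high counts follow from that choice. The counts describe a spread within 3 groups, before any comparison between groups. In bulk tissue, fewer endothelial cells and less RNA per cell cannot be told apart.

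Emcn, which encodes endomucin, was at 7.56, 4.08 and 3.80 on the fatty anti-VEGF arrays, 4.0, 4.04 and 4.09 on the healthy anti-VEGF arrays, 4.56, 8.05 and 4.27 on the fatty vehicle arrays and 4.15, 9.96 and 4.03 on the healthy vehicle arrays. All other arrays lay below the limit. Folds over an array below the limit are taken against the limit and are lower bounds. Emcn was at least 6.20-fold above the next array of its group on fatty anti-VEGF array 1, at least 8.67-fold on fatty vehicle array 2 and at least 32.6-fold on healthy vehicle array 2.

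Cdh5, the gene of VE-cadherin at endothelial junctions, was above the limit throughout, at 9.36, 7.41 and 7.26 on the fatty anti-VEGF arrays, 7.35, 7.44 and 7.60 on the healthy anti-VEGF arrays, 7.79, 9.66 and 7.50 on the fatty vehicle arrays and 8.03, 11.03 and 7.78 on the healthy vehicle arrays. The same 3 arrays were its highest, and all 3 healthy anti-VEGF arrays lay below all 3 healthy vehicle arrays. Plvap, which forms the diaphragms of fenestrae, was at 7.18, 5.36 and 5.16 on the fatty anti-VEGF arrays, 5.39, 5.11 and 5.32 on the healthy anti-VEGF arrays, 5.43, 7.82 and 5.47 on the fatty vehicle arrays and 5.11, 9.38 and 5.24 on the healthy vehicle arrays.

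Vwf, the gene of von Willebrand factor, was at 6.13, 5.01 and 5.06 on the fatty anti-VEGF arrays, 4.85, 4.74 and 5.11 on the healthy anti-VEGF arrays, 5.16, 6.54 and 5.15 on the fatty vehicle arrays and 4.79, 8.23 and 4.97 on the healthy vehicle arrays. Its groups overlapped in every comparison. Cldn5, a tight junction gene, passed the limit only on fatty vehicle array 2 at 5.17 and healthy vehicle array 2 at 6.09, and was not tested. Its other 10 arrays ranged down to 4.14.

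Nos3, the endothelial nitric oxide synthase, was at 5.32, 4.88 and 4.81 on the fatty anti-VEGF arrays, 5.03, 5.17 and 5.21 on the healthy anti-VEGF arrays, 4.98, 5.86 and 5.12 on the fatty vehicle arrays and 5.34, 6.76 and 5.01 on the healthy vehicle arrays. Erg, an ETS factor of endothelial identity, was at 5.24, 4.61 and 4.49 on the fatty anti-VEGF arrays, 4.51, 4.70 and 4.98 on the healthy anti-VEGF arrays, 4.94, 6.37 and 4.97 on the fatty vehicle arrays and 4.88, 6.86 and 4.79 on the healthy vehicle arrays. Of the 12 arrays, healthy vehicle array 2 was again the highest for both genes and fatty vehicle array 2 the next.

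The other pan-endothelial genes mostly shared this order. On fatty vehicle array 2, Cd34, Mmrn2, Cyyr1, Esam, Ecscr, Egfl7 and Icam2 were 1.12-fold to 5.73-fold above the next array of their group, and Ptprb, Sox18, Podxl, Robo4 and Myct1 at least 1.39-fold to 5.82-fold. On healthy vehicle array 2, Cd34 was 26.3-fold above the next array, Mmrn2 13-fold and Podxl 10.7-fold, while Esam, Egfl7, Ecscr and Icam2 were 1.58-fold to 5.56-fold above. Ptprb, the gene of the phosphatase VE-PTP, was at least 20.7-fold above there, the transcription factor gene Sox18 at least 16.1-fold, Cyyr1 at least 9.51-fold, and Myct1, Robo4, Clec14a and Sox17 at least 1.67-fold to 6.14-fold. Sox17, Myct1 and Clec14a were above the limit on at most 2 arrays and were not tested.

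A few pan-endothelial genes did not lead on all 3 of these arrays. Sox7 was not highest in its group on any of the 3 arrays. Eng and Aqp1 were higher on healthy vehicle array 2 by 1.77-fold and 1.36-fold, and neither was higher on fatty anti-VEGF array 1 than on the other arrays of its group. Pecam1 and Fli1 were 9.75-fold and 4.72-fold higher on healthy vehicle array 2, 1.53-fold and 1.12-fold higher on fatty vehicle array 2, and not higher on fatty anti-VEGF array 1.

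The tip and apelin genes followed the pan-endothelial genes on the same 3 arrays. Apln, the gene of the ligand apelin, was at 6.88, 4.45 and 4.90 on the fatty anti-VEGF arrays, 5.19, 4.79 and 5.03 on the healthy anti-VEGF arrays, 4.76, 7.83 and 4.77 on the fatty vehicle arrays and 4.88, 9.91 and 4.90 on the healthy vehicle arrays. Aplnr, its receptor, was at 6.31, 4.83 and 4.14 on the fatty anti-VEGF arrays, 4.80, 4.86 and 4.74 on the healthy anti-VEGF arrays, 5.46, 6.38 and 5.24 on the fatty vehicle arrays and 4.73, 7.65 and 4.49 on the healthy vehicle arrays. Esm1, which encodes the proteoglycan endocan, was at 5.69, 4.18 and 4.17 on the fatty anti-VEGF arrays, 4.54, 4.25 and 4.37 on the healthy anti-VEGF arrays, 4.38, 6.19 and 4.64 on the fatty vehicle arrays and 4.45, 7.96 and 4.47 on the healthy vehicle arrays. On healthy vehicle array 2 Apln was at least 31.5-fold above the next array, Esm1 at least 8.15-fold and Aplnr at least 6.60-fold, and outside the 3 arrays Esm1 stayed below the limit.

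Transcripts of fibroblasts, matrix and mural cells were high on the same arrays. The mean of the 11 fibroblast and matrix genes was 8.12, 6.83 and 7.08 on the fatty anti-VEGF arrays, 6.68, 6.72 and 6.70 on the healthy anti-VEGF arrays, 6.55, 7.95 and 6.57 on the fatty vehicle arrays and 6.83, 9.35 and 6.76 on the healthy vehicle arrays. That of the 11 pericyte and smooth muscle genes was 6.59, 5.81 and 5.90 on the fatty anti-VEGF arrays, 6.23, 6.24 and 6.26 on the healthy anti-VEGF arrays, 5.95, 7.07 and 5.98 on the fatty vehicle arrays and 6.21, 7.65 and 6.12 on the healthy vehicle arrays. On each of the 3 arrays 10 of the 11 fibroblast genes were above the limit, against 9 or 10 on the others, and 10 to 11 of the 11 mural genes, against 5 to 7. All 9 neutrophil genes were higher on fatty anti-VEGF array 1 than on both other arrays of its group, 8 of them by more than 1 on the log2 scale. Of 14 macrophage genes 5 were above both other arrays on fatty anti-VEGF array 1, 7 on fatty vehicle array 2 and 12 on healthy vehicle array 2, and of 13 T and NK cell genes 8, 12 and 9. The 2 vehicle arrays among the 3 were also the vehicle arrays low in Xist. The part of these differences in the endothelial values was not tested. Hepatocyte genes did not move with them, with list means between 4.16 and 4.26 over the 12 arrays and 3 or 4 of 14 genes above the limit.

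**Figure D2:**
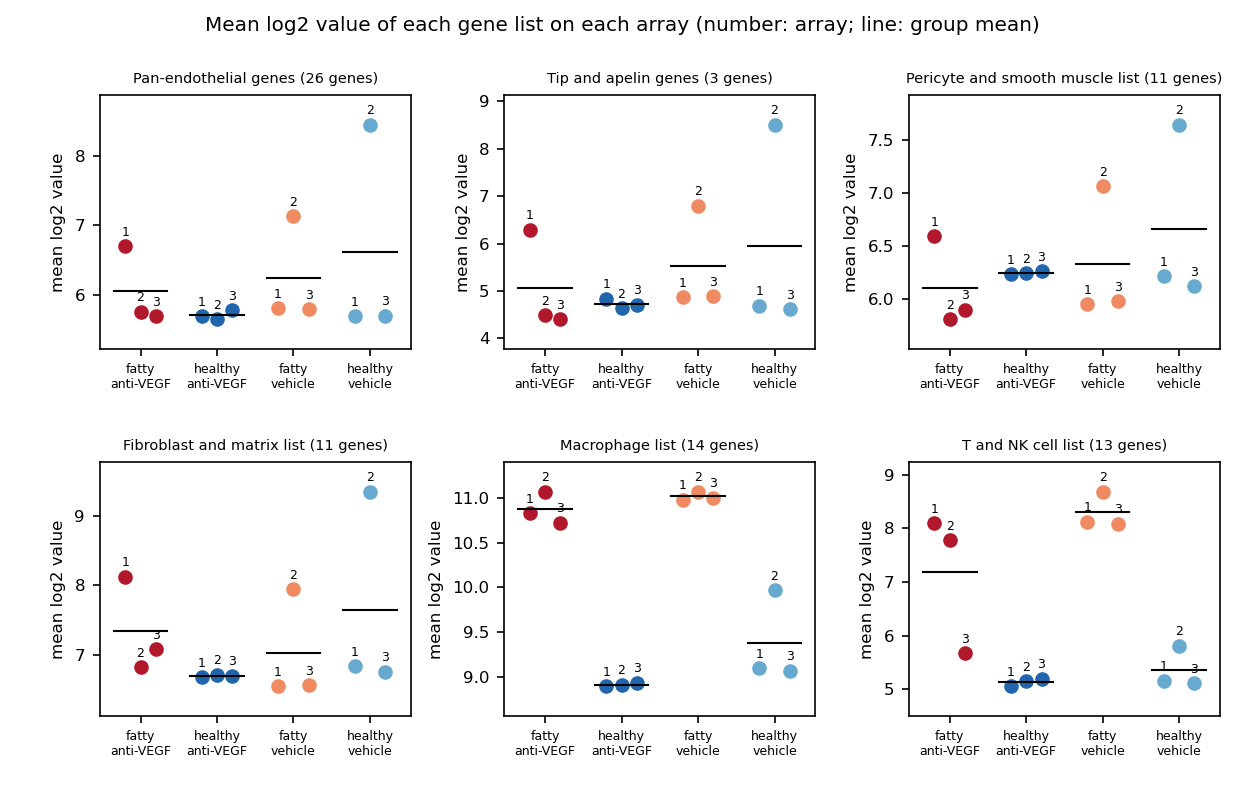
Mean log2 value of 6 gene lists (vertical axes, scaled per panel) on each array, by group (horizontal axis), where the number is the array and the line the group mean. Array 1 of fatty anti-VEGF, array 2 of fatty vehicle and array 2 of healthy vehicle lead their groups in the pan-endothelial, tip, pericyte and fibroblast panels, whereas macrophage means are above 10.7 on all fatty liver arrays and below 10.0 on all healthy liver arrays.

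With anti-VEGF, no endothelial or adhesion gene passed the test against vehicle in either liver. The pan-endothelial means given above put vehicle arrays 1 and 3 of healthy liver, at 5.70 and 5.71, within the 5.66 to 5.79 of its anti-VEGF arrays, so that the lower mean with anti-VEGF there rests on vehicle array 2. The median log2 difference of the 22 tested pan-endothelial genes was -0.26 in fatty liver and -1.05 in healthy liver, against 0.01 and 0.005 for all tested genes. In limma 0 of 33 genes passed in either liver. Of all tested genes 0.00753% passed in fatty liver and 0% in healthy liver. The gene called in fatty liver was the kallikrein gene Klk1b11, which is not in the set and is named here after its values were seen. At an unadjusted p under 0.05 the count was 0 of 33 in fatty liver and 1 of 33, Sele, in healthy liver, and over all tested genes it was 778 and 1118.

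Emcn differed by -0.48 ± 1.61 (moderated SE, 3 arrays against 3) in fatty liver and by -2.0 ± 1.61 (adjusted p = 0.813) in healthy liver, where the vehicle group held 1 high and 2 low arrays. For Cdh5 the differences were -0.31 ± 0.88 in fatty liver and -1.49 ± 0.88 (adjusted p = 0.707) in healthy liver, and for Apln -0.38 ± 1.30 and -1.56 ± 1.30 (adjusted p = 0.823). In fatty liver 23 of 33 genes had a difference below 0, and in healthy liver 31 of 33 did, the 2 others being Sox7 and Sele, against 47.2% and 48.4% of all tested genes. The healthy liver count includes vehicle array 2. The fatty liver count sets vehicle array 2, with a pan-endothelial mean of 7.13, against anti-VEGF array 1, with 6.71. Emcn, Robo4, Sox18, Ptprb, Esm1 and Selp were tested only because the 3 arrays high in endothelial genes passed the limit. The genes are not independent of each other, and both counts are given as a description. In fatty liver only Pecam1 was fully apart between groups as higher, against 3.07% of all genes, and only Icam2 as lower, against 4.99%. In healthy liver the groups were apart for Cdh5, Eng, Fli1 and Aqp1, all lower with anti-VEGF, and for Sele, which was higher. Over all tested genes in healthy liver 11.7% were apart in the lower and 13.1% in the higher direction.

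The call rests on which arrays stand for vehicle. Without the 4 vehicle arrays high in Xist, 1 vehicle array a liver was left, and in healthy liver 20 of the 33 genes were lower and Sele higher with anti-VEGF, against 5.68% of all tested genes called in that setting. That vehicle array was array 2, the one highest in endothelial genes, and its spread is assumed to equal that of the other groups. Without the 3 arrays high in endothelial genes, 2 genes passed in fatty liver, Pecam1 (0.82 ± 0.11) and Vcam1 (1.03 ± 0.13), both higher, and 0 in healthy liver, against 0.625% and 1.02% of all tested genes. Those arrays were picked after seeing the data for their high values in these same genes. Fatty vehicle was left with its near-identical arrays 1 and 3, and the dropped fatty anti-VEGF array was the lowest of its group in Vcam1. The 2 calls are therefore given as a description. The interaction tested the treatment difference in fatty liver minus that in healthy liver, and 0 of 33 passed, against 0% of all genes, with Sele alone at an unadjusted p under 0.05 and 677 of all genes. The interaction difference was above 0 in 32 of 33 genes, Sele being the exception, while 45.1% of all tested genes were below 0. Healthy vehicle array 2, the highest in endothelial genes, enters that count, as it does the healthy liver difference. This count too is given as a description.

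Between livers, 10 of the 33 genes passed under anti-VEGF and 10 under vehicle, and 9 of them passed in both. Under anti-VEGF 7 were higher and 3 lower in fatty liver, shares of 21.2% and 9.09% against 18.2% and 27.6% of all tested genes (45.8% in either direction). Under vehicle 6 were higher and 4 lower, 18.2% and 12.1% against 19.2% and 30.4% of all genes (49.6% in either direction). The set thus held no more calls than the table as a whole, in which the median difference was -0.13 under anti-VEGF and -0.12 under vehicle. For the 33 genes it was 0.41 under anti-VEGF and -0.42 under vehicle. The 2 comparisons share no array, but both use the same estimate of spread for a gene from all 12 arrays. They are not separate tests.

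**Figure D3:**
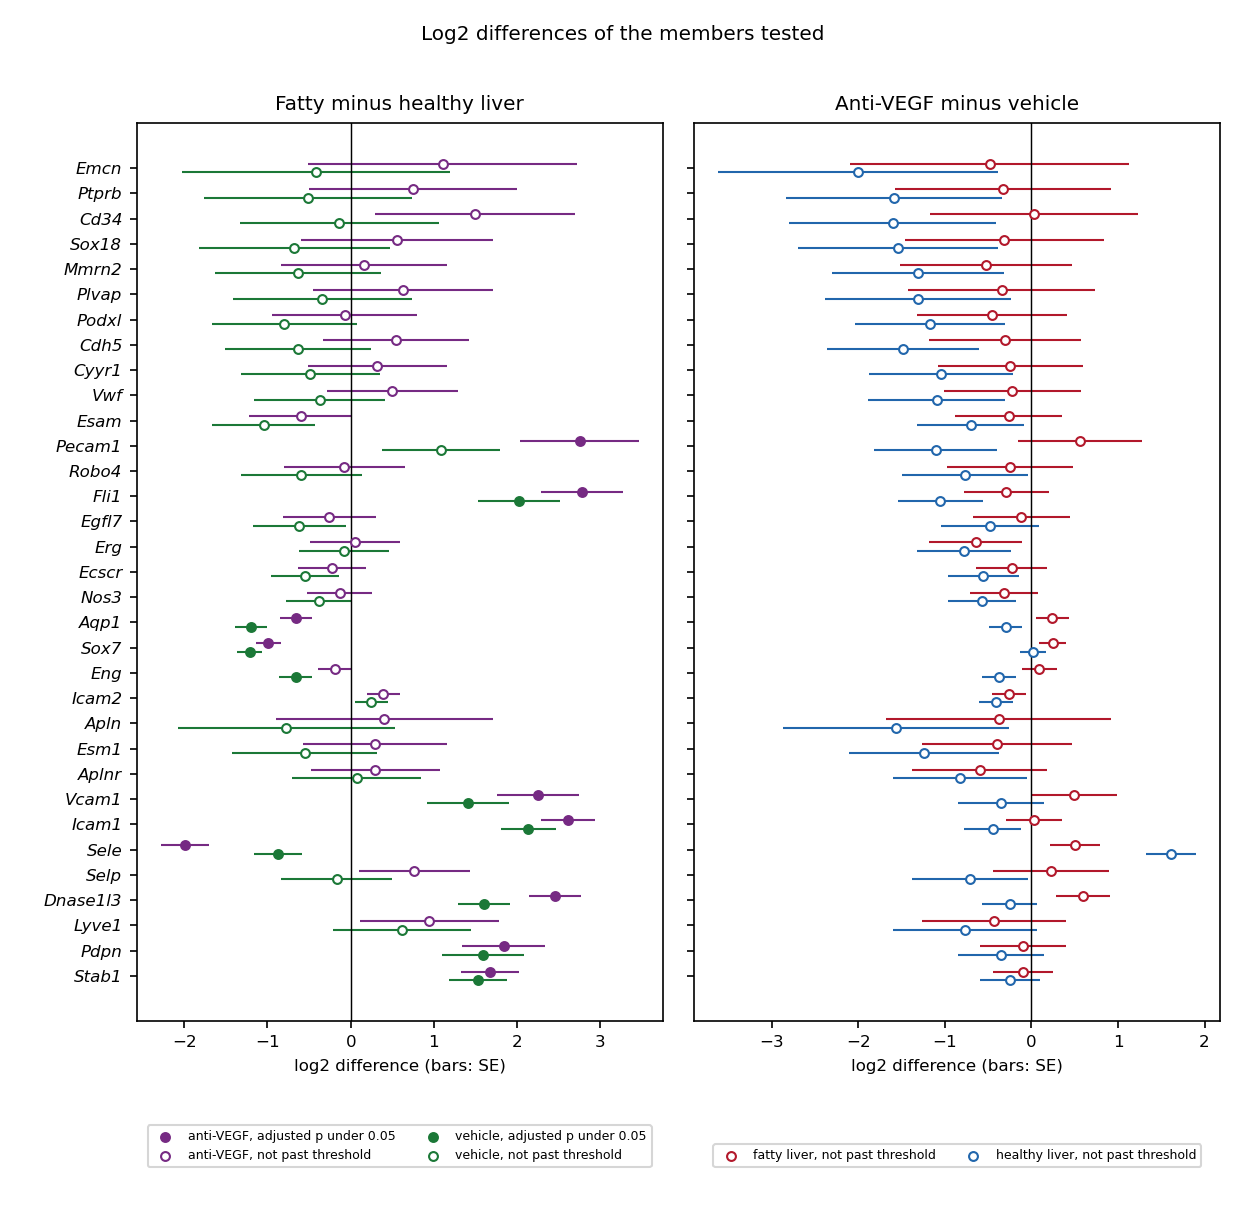
Log2 differences (horizontal axes) of the 33 tested genes (vertical axis), fatty minus healthy liver on the left and anti-VEGF minus vehicle on the right, with moderated standard errors as bars and filled points for an adjusted p under 0.05. The filled points are on the left panel alone, and the longest bars, of Emcn and Apln, belong to open points.

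The pan-endothelial genes that passed between livers were Fli1, Pecam1, Sox7, Aqp1 and Eng. All 5 were above the limit on all 12 arrays, as were Cdh5, Esam, Egfl7 and Plvap, which did not pass. Fli1, an ETS factor of endothelium that blood cells also express, was at 10.44, 10.67 and 10.04 on the fatty anti-VEGF arrays, 7.55, 7.59 and 7.66 on the healthy anti-VEGF arrays, 10.59, 10.80 and 10.63 on the fatty vehicle arrays and 7.85, 10.17 and 7.94 on the healthy vehicle arrays. It was higher in fatty liver by 2.78 ± 0.49 under anti-VEGF (adjusted p = 0.00158) and by 2.02 ± 0.49 under vehicle (adjusted p = 0.00751), and the groups did not overlap in either comparison.

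Pecam1, an adhesion molecule of endothelial junctions that leukocytes and platelets also carry, was at 8.94, 8.96 and 9.26 on the fatty anti-VEGF arrays, 6.35, 6.26 and 6.30 on the healthy anti-VEGF arrays, 8.29, 8.90 and 8.28 on the fatty vehicle arrays and 6.21, 9.64 and 6.36 on the healthy vehicle arrays. All fatty liver arrays were at 8.28 or more, and in healthy liver only vehicle array 2 was. The difference was 2.75 ± 0.71 under anti-VEGF (adjusted p = 0.0112) and 1.09 ± 0.71 under vehicle (adjusted p = 0.227). Without healthy vehicle array 2 the vehicle difference of Pecam1 was 2.20 ± 0.18 (adjusted p = 1.38e-05). That fit drops the 1 healthy liver array high in Pecam1 and leaves the near-identical arrays 1 and 3 of its group. The smaller error follows from that choice, 55.2% of all tested genes were called there, and the value is given as a description.

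Lower in fatty liver were Sox7, Aqp1 and, under vehicle, Eng, and the part of cells other than endothelium in their values was not tested. Sox7, a SOX factor of early endothelium, was at 7.47, 7.40 and 8.05 on the fatty anti-VEGF arrays, 8.57, 8.69 and 8.63 on the healthy anti-VEGF arrays, 7.52, 7.26 and 7.41 on the fatty vehicle arrays and 8.54, 8.60 and 8.69 on the healthy vehicle arrays. Its difference was -0.99 ± 0.15 under anti-VEGF (adjusted p = 0.000729) and -1.21 ± 0.15 under vehicle (adjusted p = 0.000308), with no overlap.

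Aqp1, a water channel of endothelium and some epithelia, was at 9.62, 9.47 and 10.23 on the fatty anti-VEGF arrays, 10.41, 10.41 and 10.48 on the healthy anti-VEGF arrays, 9.62, 9.54 and 9.44 on the fatty vehicle arrays and 10.53, 11.05 and 10.61 on the healthy vehicle arrays. It differed by -0.66 ± 0.19 under anti-VEGF (adjusted p = 0.0179) and by -1.20 ± 0.19 under vehicle (adjusted p = 0.000937). The groups were apart in both, and the anti-VEGF call was lost without fatty anti-VEGF array 1 or 2 or healthy anti-VEGF array 3.

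Eng, a co-receptor for TGF-beta family ligands, was at 9.97, 10.09 and 10.27 on the fatty anti-VEGF arrays, 10.32, 10.32 and 10.27 on the healthy anti-VEGF arrays, 10.03, 10.17 and 9.85 on the fatty vehicle arrays and 10.39, 11.23 and 10.41 on the healthy vehicle arrays. It differed by -0.66 ± 0.20 under vehicle (adjusted p = 0.0186), a call lost without fatty vehicle array 3, and by -0.19 ± 0.20 under anti-VEGF (adjusted p = 0.441). None of the other tested pan-endothelial genes passed in either comparison.

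Without the 3 arrays high in endothelial genes, 19 of the 33 genes passed under anti-VEGF, 10 higher and 9 lower in fatty liver, against 47.8% of all tested genes. Under vehicle 16 passed, 10 higher and 6 lower, against 56.5% of all tested genes. Those arrays were picked after seeing the data for their high values in these same genes, which removes spread within the groups, so the added calls are given as a description.

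The activated adhesion genes moved in opposite directions between livers. Icam1, the ligand of leukocyte beta2 integrins, was at 9.56, 9.53 and 8.97 on the fatty anti-VEGF arrays, 6.78, 6.76 and 6.68 on the healthy anti-VEGF arrays, 9.20, 9.63 and 9.15 on the fatty vehicle arrays and 6.85, 8.09 and 6.63 on the healthy vehicle arrays. It was higher in fatty liver by 2.61 ± 0.33 under anti-VEGF (adjusted p = 2e-04) and by 2.14 ± 0.33 under vehicle (adjusted p = 0.000774), with no overlap.

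Vcam1, the ligand of the integrin VLA-4, was at 8.17, 10.08 and 10.16 on the fatty anti-VEGF arrays, 7.37, 7.0 and 7.29 on the healthy anti-VEGF arrays, 9.18, 8.77 and 8.99 on the fatty vehicle arrays and 7.12, 8.42 and 7.17 on the healthy vehicle arrays. Fatty anti-VEGF array 1, high in endothelial genes, was the lowest in Vcam1 of its group. The difference was 2.25 ± 0.50 under anti-VEGF (adjusted p = 0.0052) and 1.41 ± 0.50 under vehicle (adjusted p = 0.0368), and the vehicle call was lost in 7 of 12 fits that each left out 1 array, among them those without any 1 of the fatty vehicle arrays or without healthy vehicle array 1 or 3, or healthy anti-VEGF array 1 or 3.

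Sele, the gene of E-selectin, ran the other way. It was at 6.56, 7.15 and 5.98 on the fatty anti-VEGF arrays, 8.47, 8.62 and 8.58 on the healthy anti-VEGF arrays, 6.34, 5.64 and 6.20 on the fatty vehicle arrays and 7.20, 6.52 and 7.11 on the healthy vehicle arrays. The 3 healthy anti-VEGF arrays, which were low in most of the other endothelial genes, were its highest, and both vehicle arrays high in endothelial genes were the lowest of their groups. In fatty liver it was lower by 1.99 ± 0.29 under anti-VEGF (adjusted p = 0.000514) and by 0.88 ± 0.29 under vehicle (adjusted p = 0.028), a call lost without fatty vehicle array 2 or healthy vehicle array 1 or 3.

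With anti-VEGF against vehicle, Sele differed by 0.50 ± 0.29 in fatty liver (adjusted p = 0.795) and by 1.62 ± 0.29 in healthy liver (adjusted p = 0.118), where all 3 anti-VEGF arrays lay above all 3 vehicle arrays. The healthy liver difference of Sele passed in 4 of 24 alternatives and not in the other 20. It passed at adjusted p-values of 0.000165 with array weights, 0.0441 in the arrays of the 2 groups alone, 0.0333 without the vehicle arrays high in Xist and 0.0315 without fatty anti-VEGF array 3. Its interaction was -1.11 ± 0.41 (adjusted p = 0.964).

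Selp, the gene of P-selectin, which platelets also store, behaved like the pan-endothelial genes. It was at 6.49, 4.46 and 4.56 on the fatty anti-VEGF arrays, 4.64, 4.43 and 4.15 on the healthy anti-VEGF arrays, 4.59, 5.59 and 4.67 on the fatty vehicle arrays and 4.41, 6.66 and 4.29 on the healthy vehicle arrays. Only the 3 arrays high in endothelial genes were above the limit, and Selp did not pass between livers (0.77 ± 0.67 under anti-VEGF, adjusted p = 0.367, and -0.17 ± 0.67 under vehicle, adjusted p = 0.855).

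**Figure D4:**
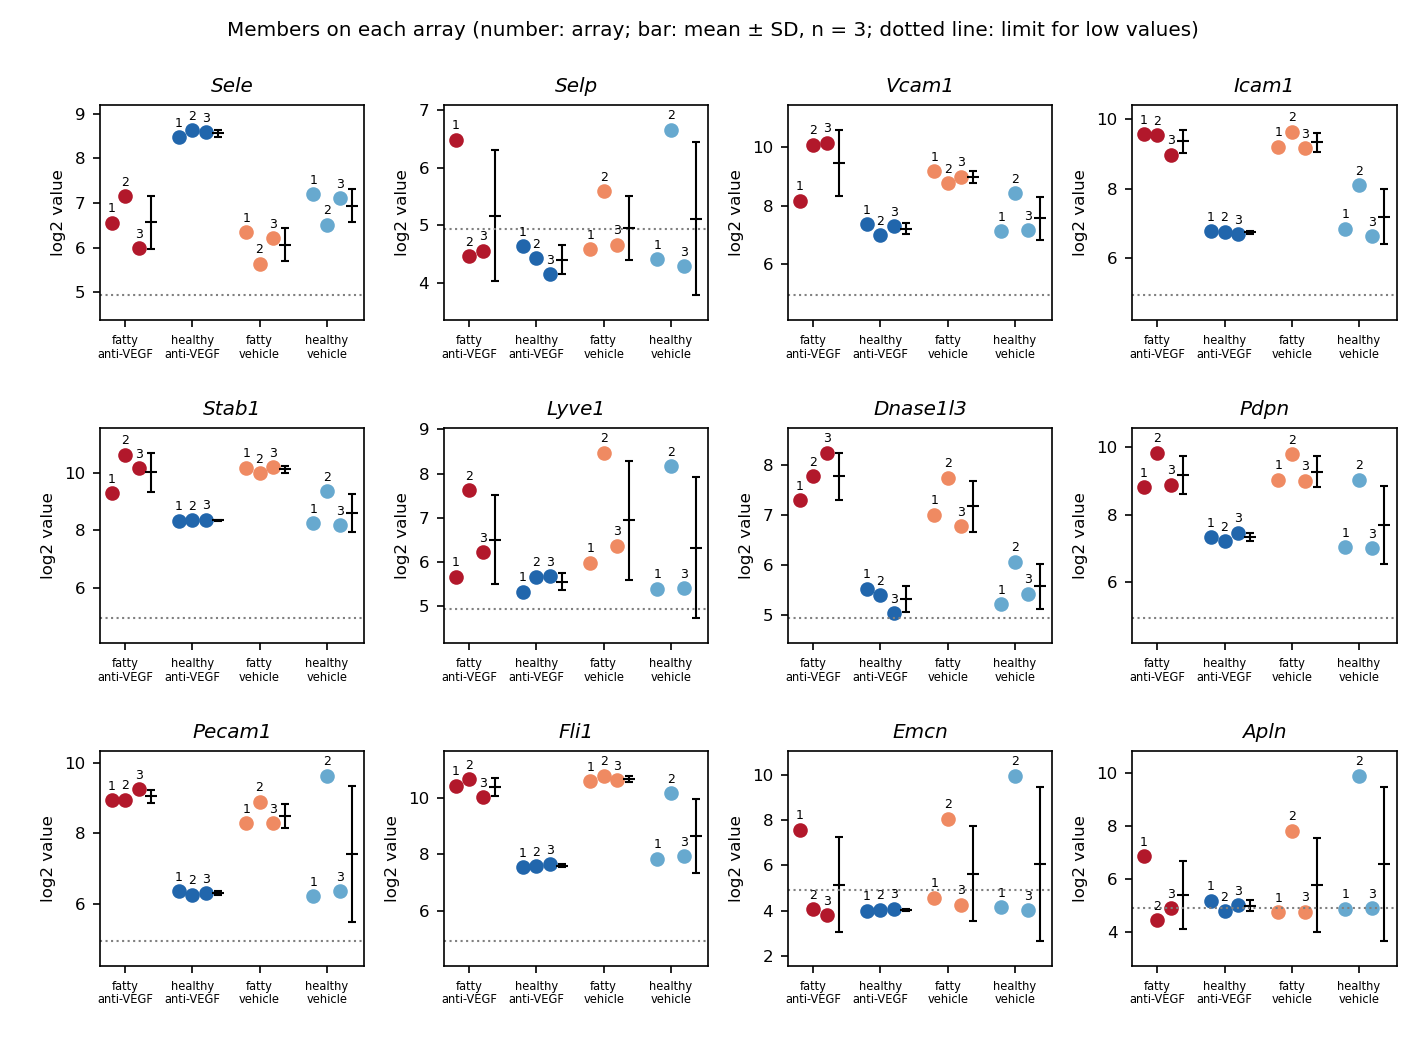
Log2 values (vertical axes) of 12 of the genes on each array, by group (horizontal axis), with the group mean and SD (n = 3) as a bar and the limit for low values, 4.93, as a dotted line. Sele is highest on the healthy anti-VEGF arrays, Icam1, Stab1 and Dnase1l3 are higher in fatty liver, and Emcn and Apln pass 6 on 3 arrays alone.

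Of the sinusoidal and lymphatic genes, Stab2, the scavenger receptor most restricted to sinusoids, and Prox1, the transcription factor of lymphatic endothelium, were not above the limit on any array. Stab2 ranged between 3.63 and 3.87 and Prox1 between 3.91 and 4.20, and neither was tested. The 4 others, Stab1, Dnase1l3, Pdpn and Lyve1, were above the limit on all arrays.

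Stab1, a scavenger receptor that macrophages share with sinusoids, was at 9.30, 10.64 and 10.16 on the fatty anti-VEGF arrays, 8.34, 8.35 and 8.38 on the healthy anti-VEGF arrays, 10.19, 9.99 and 10.22 on the fatty vehicle arrays and 8.24, 9.37 and 8.19 on the healthy vehicle arrays. It was higher in fatty liver by 1.68 ± 0.35 under anti-VEGF (adjusted p = 0.00384) and 1.53 ± 0.35 under vehicle (adjusted p = 0.00552), without overlap.

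Dnase1l3, a secreted nuclease of sinusoidal endothelium and some myeloid cells, was at 7.29, 7.76 and 8.24 on the fatty anti-VEGF arrays, 5.52, 5.39 and 5.03 on the healthy anti-VEGF arrays, 7.0, 7.74 and 6.77 on the fatty vehicle arrays and 5.22, 6.06 and 5.42 on the healthy vehicle arrays. It was higher in fatty liver by 2.45 ± 0.31 under anti-VEGF (adjusted p = 0.000237) and 1.60 ± 0.31 under vehicle (adjusted p = 0.00275). The groups were again apart in both.

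Pdpn, the gene of podoplanin, which lymphatic endothelium, fibroblasts and some macrophages carry, was at 8.81, 9.83 and 8.89 on the fatty anti-VEGF arrays, 7.33, 7.21 and 7.47 on the healthy anti-VEGF arrays, 9.03, 9.79 and 9.0 on the fatty vehicle arrays and 7.04, 9.03 and 7.0 on the healthy vehicle arrays. The difference was 1.84 ± 0.49 under anti-VEGF (adjusted p = 0.0135), a call lost without fatty anti-VEGF array 2. Under vehicle it was 1.59 ± 0.49 (adjusted p = 0.0225), a call lost without fatty vehicle array 2 or healthy vehicle array 1 or 3, and there the groups overlapped through healthy vehicle array 2.

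Lyve1, a hyaluronan receptor of lymphatic and sinusoidal endothelium and of some macrophages, was at 5.67, 7.62 and 6.23 on the fatty anti-VEGF arrays, 5.33, 5.66 and 5.68 on the healthy anti-VEGF arrays, 5.99, 8.47 and 6.37 on the fatty vehicle arrays and 5.40, 8.17 and 5.41 on the healthy vehicle arrays. It was high on array 2 of fatty anti-VEGF, fatty vehicle and healthy vehicle, and it did not pass between livers (0.94 ± 0.83 under anti-VEGF, adjusted p = 0.372, and 0.62 ± 0.83 under vehicle, adjusted p = 0.565).

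Many leukocyte genes were also higher in fatty liver, where 18.2% of all tested genes were higher under anti-VEGF and 19.2% under vehicle. Of 13 tested macrophage genes 12 were higher under each treatment, with medians of 2.32 under anti-VEGF and 1.84 under vehicle. Their mean over 14 genes was 10.73 to 11.07 on the fatty anti-VEGF arrays, 8.89 to 8.93 on the healthy anti-VEGF arrays, 10.98 to 11.07 on the fatty vehicle arrays and 9.07 to 9.97 on the healthy vehicle arrays, with 13 of 14 above the limit on all arrays. Of 13 T and NK cell genes 10 were higher under anti-VEGF and 13 under vehicle, and of 7 neutrophil genes 3 under each. With near-identical arrays averaged, 8 macrophage genes were higher under anti-VEGF and 5 under vehicle, and 0 and 2 of the T and NK cell genes. In that setting 3.84% and 5.43% of all tested genes passed. The T and NK cell mean was 8.10, 7.78 and 5.67 on fatty anti-VEGF arrays 1, 2 and 3, and the neutrophil mean 9.18, 6.56 and 5.49. That of T and NK cells was 5.05 to 5.19 on the healthy anti-VEGF arrays, 8.09 to 8.68 on the fatty vehicle arrays and 5.12 to 5.81 on the healthy vehicle arrays. On fatty anti-VEGF array 3 Pecam1, Vcam1 and Dnase1l3 were highest of their group, Fli1 and Icam1 lowest, and Stab1 and Pdpn between. The part of leukocyte genes in the differences of Pecam1, Fli1, Icam1, Vcam1, Stab1, Dnase1l3 and Pdpn was not tested. Of 6 Kupffer cell genes 5, among them Clec4f at 4.70 or less, were not above the limit on at least 3 arrays and were not tested. Folr2, which other macrophages also express, was at 10.23 to 11.45 on the fatty anti-VEGF arrays, 9.01 to 9.09 on the healthy anti-VEGF arrays, 11.15 to 11.58 on the fatty vehicle arrays and 9.59 to 10.36 on the healthy vehicle arrays. It was higher in fatty liver by 1.85 ± 0.28 under anti-VEGF (adjusted p = 0.000721) and 1.53 ± 0.28 under vehicle (adjusted p = 0.00218).

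The calls between livers depend on how the near-identical arrays are counted. With those arrays averaged, 8 arrays remained, and 0 of the 33 genes passed under anti-VEGF and 1 under vehicle, Sox7. Under anti-VEGF the 3 healthy arrays became 1 average and the fatty arrays were kept as they were. This cannot change a difference of group means, so the unchanged differences there are no test of stability. These differences were 2.61 ± 0.52 for Icam1, 2.45 ± 0.49 for Dnase1l3 and -1.99 ± 0.49 for Sele. With 1 healthy array left, the errors rest on the spread of the other groups. Under vehicle Icam1 differed by 1.99 ± 0.45 (adjusted p = 0.0572). Fli1 lay further from the threshold, at 1.67 ± 0.67 (adjusted p = 0.144). So did Pdpn at 1.38 ± 0.69 (adjusted p = 0.208) and Vcam1 at 1.14 ± 0.74 (adjusted p = 0.31). Of all tested genes 3.84% passed under anti-VEGF and 5.43% under vehicle in that setting. Without the 4 vehicle arrays high in Xist, 3 of 33 passed under vehicle, Icam1 (1.54 ± 0.29), Eng (-1.06 ± 0.18) and Aqp1 (-1.51 ± 0.34), against 7.96% of all tested genes. The vehicle differences were then 0.62 ± 0.29 for Fli1, 0.62 ± 0.55 for Stab1, 0.35 ± 0.90 for Vcam1 and 0.77 ± 0.47 for Pdpn, and those of Dnase1l3, Sele and Sox7 were 1.68 ± 0.44, -0.87 ± 0.48 and -1.34 ± 0.31, none past the threshold.

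Other genes of the same kinds gave a similar mixture. Of 37 further endothelial genes tested, 7 were higher and 6 lower in fatty liver under anti-VEGF, and 5 were higher and 8 lower under vehicle. Among all tested genes 18.2% were higher and 27.6% lower under anti-VEGF, and 19.2% and 30.4% under vehicle. Of the 37, 3 were lower under anti-VEGF without fatty anti-VEGF array 1 or 2 or any 1 healthy anti-VEGF array. Under vehicle 12 of them were higher without healthy vehicle array 2, where 55.2% of all tested genes were called. Without fatty vehicle array 3, 5 were lower, and 43.2% of all tested genes were called. With near-identical arrays averaged, 0 of the 37 passed under anti-VEGF and 1 under vehicle, Lyl1 (1.97, adjusted p = 0.0444), against 3.84% and 5.43% of all tested genes.

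Kdr, the gene of VEGFR2, was at 9.10, 8.14 and 7.69 on the fatty anti-VEGF arrays, 5.28, 5.32 and 4.96 on the healthy anti-VEGF arrays, 9.01, 9.57 and 8.97 on the fatty vehicle arrays and 5.87, 9.29 and 6.09 on the healthy vehicle arrays. Its difference between livers was 3.12 ± 0.75 under anti-VEGF (adjusted p = 0.00785) and 2.10 ± 0.75 under vehicle (adjusted p = 0.0386), and it did not pass with treatment. The vehicle call of Kdr was lost in 9 of 12 fits that each left out 1 array, those without fatty anti-VEGF array 2, any 1 healthy anti-VEGF or fatty vehicle array, or healthy vehicle array 1 or 3. With near-identical arrays averaged, Kdr missed the threshold in both (3.12, adjusted p = 0.199 under anti-VEGF, and 1.65, adjusted p = 0.297 under vehicle). Flt1, the gene of VEGFR1, did not pass in any comparison of all 12 arrays, and passed under vehicle without healthy vehicle array 2. That array was its highest, and 55.2% of all tested genes were called without it. Nrp1, a co-receptor for VEGF, was higher by 2.78 ± 0.44 under anti-VEGF and 1.98 ± 0.44 under vehicle, Cd93 by 2.66 ± 0.44 and 1.94 ± 0.44, Lyl1 by 1.74 ± 0.27 and 2.04 ± 0.27, and Thbd by 1.89 ± 0.40 and 1.85 ± 0.40.

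Of 15 further genes of leukocyte adhesion, 7 were higher and 3 lower under anti-VEGF and 7 higher and 1 lower under vehicle. Over all tested genes 18.2% were higher and 27.6% lower under anti-VEGF, and 19.2% and 30.4% under vehicle. The lower calls among the 15 were 1 under anti-VEGF without healthy anti-VEGF array 3 and 2 under vehicle without healthy vehicle array 3. With near-identical arrays averaged, 6 of the 15 were higher under anti-VEGF and 5 under vehicle, with 0 lower. In that setting 3.84% and 5.43% of all tested genes passed. The integrin genes Itgb2, Itgam and Itgal, whose products bind ICAM-1, were higher by 2.71 ± 0.23, 2.93 ± 0.25 and 3.25 ± 0.32 under anti-VEGF and by 2.23 ± 0.23, 2.31 ± 0.25 and 2.99 ± 0.32 under vehicle. Alcam, an adhesion molecule that binds CD6 on T cells, was higher by 2.71 ± 0.23 under anti-VEGF and 2.39 ± 0.23 under vehicle. These 4 genes passed in both comparisons with near-identical arrays averaged, at adjusted p-values of 0.0287 to 0.0325 under anti-VEGF and 0.0381 under vehicle. Of 6 further sinusoidal and lymphatic genes tested, 2 were higher and 1 lower under anti-VEGF and 3 higher and 1 lower under vehicle. The same shares of all tested genes stand beside these counts. Fcgr2b and Mrc1, receptors shared by sinusoids and macrophages, were higher by 1.85 ± 0.23 and 1.79 ± 0.26 under anti-VEGF and by 1.37 ± 0.23 and 1.49 ± 0.26 under vehicle, and 0 of the 6 passed in either comparison with those arrays averaged. In these 3 lists 0 genes passed with treatment in either liver or in the interaction.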

How the data were processed

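RNA of tumours was measured on 12 arrays, with 3 in each of 4 groups. The values are log2 expression values that the authors deposited, and the log2 scale was read from their range. Expression Console of Affymetrix is the tool named in the submitters' processing notes. The sources used here do not give its settings, the normalization or a genome build. Array medians lay between 4.88 and 4.99, and no further normalization was applied. Precision is limited by the number of arrays.

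Gene names came from the platform annotation (41345 rows, of which 23521 had 1 symbol, 1814 several and 16010 none). For a gene with several rows, such as Cyyr1 among the 40, the row with the highest mean stood for it. Genes above 4.93 on at least 3 arrays were tested. A linear model over the 12 arrays was fitted with limma (version 3.58.1, R 4.3.3), with a mean per group, 5 contrasts and Benjamini-Hochberg adjustment over 13286 genes, at a threshold of 0.05. Errors given with differences are moderated standard errors (SE), with 8 residual and 2.40 prior degrees of freedom. The fit was tested on simulated data.

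The 40 genes, the other lists and the rule for naming genes were chosen with earlier results of these data known. The rule took genes past the threshold in any contrast, the widest ranging gene of each set and a list of main markers. Replicate numbers are shared between groups. Between the fatty and healthy vehicle groups the deviations of arrays with the same number had correlations of 0.536, 0.701 and 0.549, and in no other pair of groups were all 3 above 0.1. In both vehicle groups the near-identical arrays deviated together from the group mean, and the remaining array deviated the other way. The 3 correlations are therefore not separate, and they cannot show whether arrays with the same number form pairs. Any such pairing would come from the data alone. Alternatives varied the filter, normalization, rows per gene, weights, variance model, replicate block, averaging of near-identical arrays, and the arrays included. The setting without the 3 arrays high in endothelial genes was added after seeing the data.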

Additional observations from a re-analysis of the deposited data

How the results depend on the processing

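The numbers of the 33 genes past the threshold were 0 and 0 with anti-VEGF (fatty and healthy liver), 10 and 10 between livers (anti-VEGF and vehicle) and 0 in the interaction. They stayed within 1.5 times of these, or at 0, without a filter, with a stricter filter, with quantile normalization, with the mean of all rows of a gene, with a variance trend and with a minimum difference of 1. The replicate block gave 0, 0, 10, 10 and 0 and changed no call. With array weights the counts were 4 and 1 with anti-VEGF in fatty and healthy liver, 16 between livers under anti-VEGF and 1 in the interaction. Of all tested genes 13.9%, 12.5%, 74.4% and 11.1% were then called in these comparisons. In that setting Pdpn turned from -0.10 to 0.71 with anti-VEGF in fatty liver. With near-identical arrays averaged, 0 passed between livers under anti-VEGF and 1 under vehicle, with fewer samples. In the arrays of the 2 groups alone 1 passed with anti-VEGF in healthy liver. With the 4 Xist-high vehicle arrays left out the counts were 21 with anti-VEGF in healthy liver, 3 between livers under vehicle and 1, Pecam1, in the interaction, each resting on 1 vehicle array a liver. Without the 3 arrays high in endothelial genes they were 2 with anti-VEGF in fatty liver and 19 and 16 between livers under anti-VEGF and vehicle. Leaving out 1 array at a time gave 0 to 0 and 0 to 1 with anti-VEGF in fatty and healthy liver, 8 to 11 and 7 to 12 between livers under anti-VEGF and vehicle, and 0 to 0 in the interaction. The cause of these changes was not tested. Over 45 pairs of a gene and a comparison, a part of all pairs of the 33 genes, 1072 alternative values were computed. Of these 1004 kept their direction and side of the threshold, 50 fell short of it, 17 newly passed and 1 changed sign. Only 20 of the 45 pairs were past the threshold in the main fit, so the 1004 include values of pairs not past it in either. With near-identical arrays averaged, 1 of the 20 was still past it. The 1004 are thus no measure of how stable the calls are. Detection calls were not used, and a difference from a group near the limit can understate a change.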
